A study of Drosophila melanogaster with 4 samples.

Results

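The genes described here are those whose locus in the deposited tables spans 100 kb or more, from the first to the last annotated base of the gene. Their FPKM averaged 1 or more across the 4 libraries, and chromosomes 4 and Y and pericentromeric windows of 2L, 3L, 3R and X were left out. No window was cut on 2R, where the genes CG41520, CG17684, Gprk1 and Ir41a lie below 5.7 Mb and stayed in. FPKM is the number of sequenced fragments scaled to transcript length and to library size. The rule used gene size, position and mean level, and no difference between genotypes. It took 50 genes out of 16510 gene names, of which 10784 reached the same mean level and were tested.

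The libraries came from testes of Drosophila melanogaster, 2 from males labelled as Su(var)3-9 mutants and 2 from males labelled wild type. Each was made from polyadenylated RNA of 50 testes of males aged 3 days, and all flies were kept at 23 °C. The labels give neither the lesion in Su(var)3-9 nor the wild-type strain, so a difference between the strains outside this gene cannot be told apart from the mutation. Su(var)3-9 is a histone methyltransferase that methylates lysine 9 of histone H3 in heterochromatin, and the series concerns where it sits on chromosomes.

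In a compact genome such as that of the fly, a locus of this size consists mostly of introns. RNA polymerase needs long to cross such a gene, and several of the longest introns of flies are known to be spliced in steps. Genes of this kind often encode adhesion molecules, splicing regulators and signalling proteins with several promoters and many isoforms. Spermatocytes, the growing male germ cells, are known for transcribing very large genes, among them the fertility genes of the Y chromosome.

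Transcripts of Su(var)3-9 itself had 0 and 7.83 FPKM in the libraries labelled mutant, against 7.93 and 9.74 FPKM in the wild-type libraries. The library labelled mutant replicate 2 thus held about as much of this transcript as wild type. The difference between genotypes was not called (log2 fold change -1.72, SE 1.11, limma adjusted p = 0.339). Since the lesion is not given, it is not known whether this transcript should be lost, and these values cannot check the labels. An exact 0 in these files may also be a failed estimate. The 2 libraries labelled mutant still differed in this transcript. For that reason, counts and medians of the main comparison and of each gene group are given with and without mutant replicate 2. Single genes are given so where that library moved their fold change by more than 1.5 times. The 2 libraries labelled mutant correlated with each other across genes at 0.948 and the wild-type libraries at 0.943, against 0.890 to 0.908 between genotypes. An estimate of the fragments behind the values gave 1446647 and 1468278 for the libraries labelled mutant, against 3207719 and 3366747 fragments for wild type, a difference in depth that follows the genotype. The deposited 95% interval of a long gene had a median half-width of 32.4% and 33.5% of its level where the label was mutant, against 15.9% and 15.5% for wild type.

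Cell type markers also differed with genotype. The summed level of 23 spermatid markers was 65730 and 62504 FPKM in the libraries labelled mutant, against 40341 and 37648 FPKM in the wild-type libraries, and 12 of them rose and 0 fell. The 12 markers of germline stem cells and spermatogonia summed to 100 and 103 FPKM in the libraries labelled mutant, against 163 and 163 FPKM in the wild-type libraries, and 3 of the 9 tested fell. Of the defining markers, aub and nos were listed at 0 in all libraries, as was tomb among the 17 markers of primary spermatocytes. The spermatocyte markers summed to 1145 and 1091 FPKM in the libraries labelled mutant, against 1339 and 1328 FPKM in the wild-type libraries. Muscle sheath markers summed to 898 and 928 FPKM in the libraries labelled mutant, against 654 and 658 FPKM in the wild-type libraries, and 31 accessory gland markers to 318 and 335 FPKM, against 3397 and 117 FPKM. Cyst and hub markers summed to 115 and 110 FPKM in the libraries labelled mutant, against 118 and 113 FPKM in the wild-type libraries, and neuron markers to 29.6 and 27.4 FPKM, against 32.9 and 38 FPKM. In RNA of whole testes, fewer cells of a type and less RNA per cell cannot be told apart, and the part of these differences in the results below was not tested.

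Long genes were expressed at low to moderate levels in testes, with a median mean of 5.01 FPKM, against 14.2 FPKM over all genes tested. Only 4 of the 50 reached 100 FPKM, 17 reached 10 FPKM, and 13 lay under 2 FPKM. Per length, sm was the highest, with 1042 and 1023 FPKM in the libraries labelled mutant, against 1281 and 1244 FPKM in the wild-type libraries. It was followed by aret, CG45186 and heph, all above 100 FPKM in every library. The ranges of aret and CG45186 over the 4 libraries did not overlap each other or those of sm and heph, whereas Ptp61F and Msp300, next in order, overlapped.

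**Figure D1:**
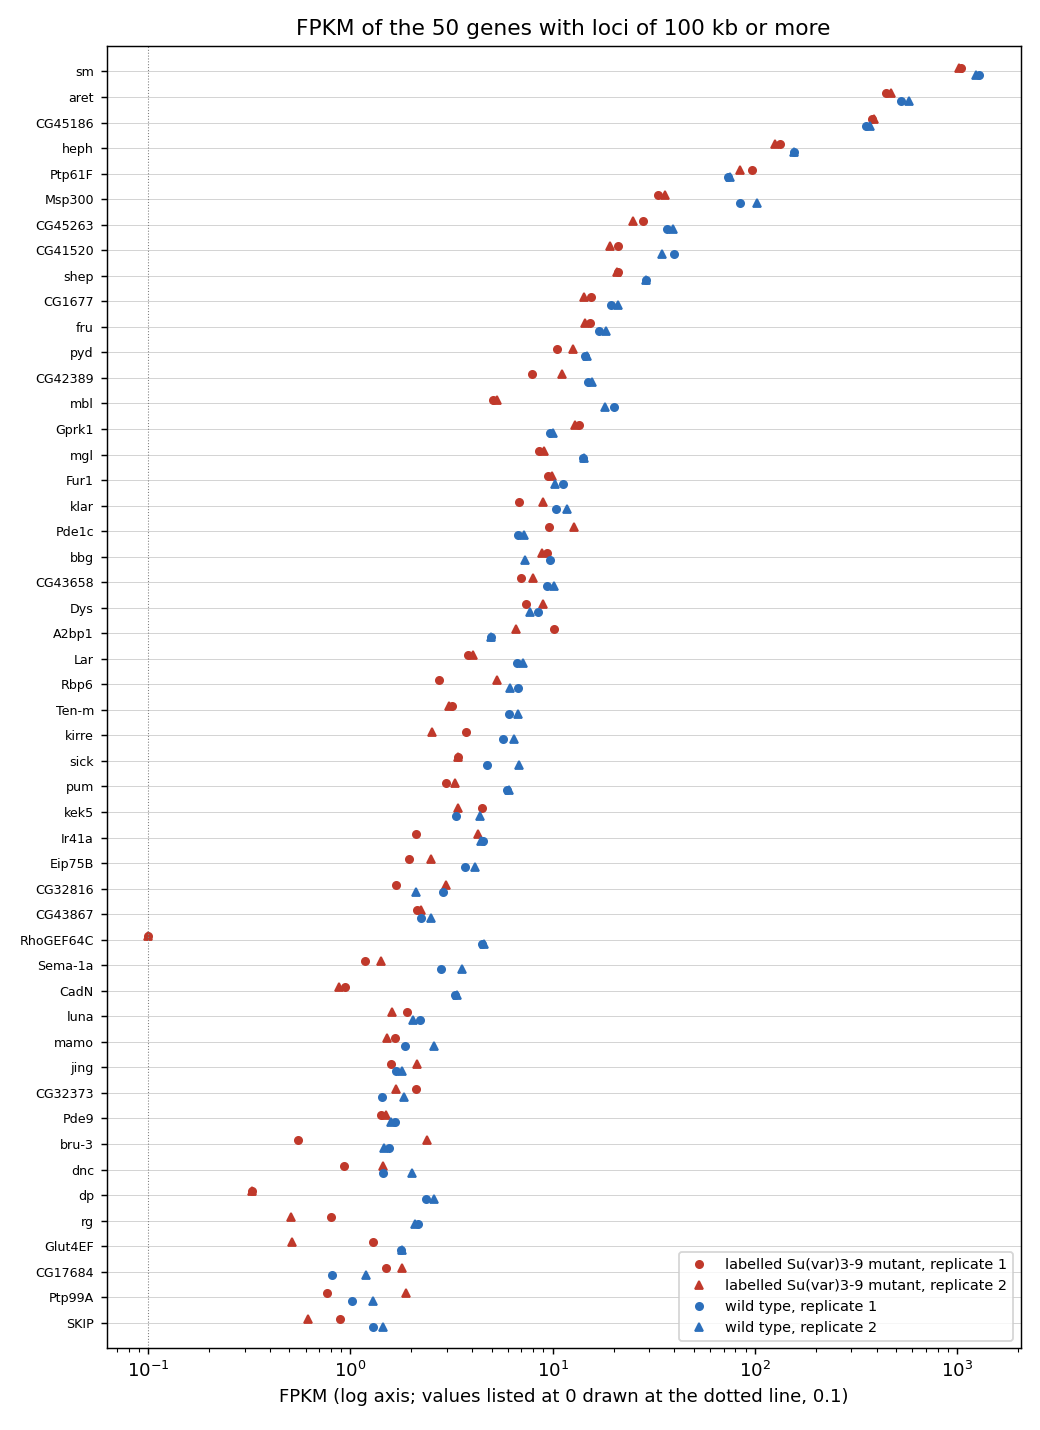
FPKM of the 50 long genes on a log axis, a row per gene in order of mean level, with red for the libraries labelled mutant, blue for wild type, circles for replicate 1 and triangles for replicate 2. In 34 rows both red symbols lie left of both blue ones and in 6 rows right of them, and RhoGEF64C, listed at 0 in both libraries labelled mutant, is drawn at the dotted line.

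The sum over the 50 genes was 2381 and 2391 FPKM in the libraries labelled mutant, against 2843 and 2894 FPKM in the wild-type libraries, and their median level was 3.78 and 4.16 FPKM, against 6.03 and 6.58 FPKM. In the test of mutant against wild type, 11 long genes fell and 0 rose. Over all genes tested, 8.67% were called lower and 11.4% higher, 20.1% in all. The test was limma on log2(FPKM + 1) with Benjamini-Hochberg adjustment over all genes and a threshold of 0.05. At an unadjusted p under 0.05, 20 long genes were lower and 3 higher, where all genes gave 17.3% lower and 19.7% higher. A log2 fold change given here is on the log2(FPKM + 1) scale, which understates the change of low genes. The median over the 50 genes was -0.34, against -0.01 over all genes tested, and 38 of the 50 lay below 0, where 50.6% of all genes did.

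Counts made without limma, from the same 4 libraries, gave the same balance of directions. Both libraries labelled mutant lay below both wild-type libraries for 34 long genes and above both for 6, where all genes tested gave 32.7% below and 32.2% above. The deposited 95% intervals of the 2 genotypes were separate for 17 genes, all lower in the libraries labelled mutant, where all genes gave 9.31% lower and 8.83% higher. Without mutant replicate 2, the median was -0.40, against 0.02 over all genes, and 0 of the 10784 genes passed the adjusted threshold. At an unadjusted p under 0.05, 25 long genes then passed, 23 of them lower, where all genes gave 17.7% lower and 19.3% higher. The spread in that fit came from the wild-type pair alone, and mutant replicate 1 was assumed to vary alike. The 11 called genes were all lower in mutant replicate 1 alone.

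The filter on mean level bears on these counts. For 6 of the 50 genes, RhoGEF64C, dp, CadN, rg, Glut4EF and SKIP, the mean of the libraries labelled mutant was under 1 FPKM, so that they passed through the wild-type libraries, and the reverse held for 0 genes. Among the 44 with at least 1 FPKM in each genotype, 8 fell, 0 rose and the median log2 fold change was -0.30. Outside the windows, 24 further genes of this size lay below 1 FPKM, with a highest mean of 0.945 FPKM. Of these, 4 were listed at 0 in all libraries, 17 had a lower mean in the libraries labelled mutant and 3 a higher mean, and none was called when the filter was dropped.

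**Figure D2:**
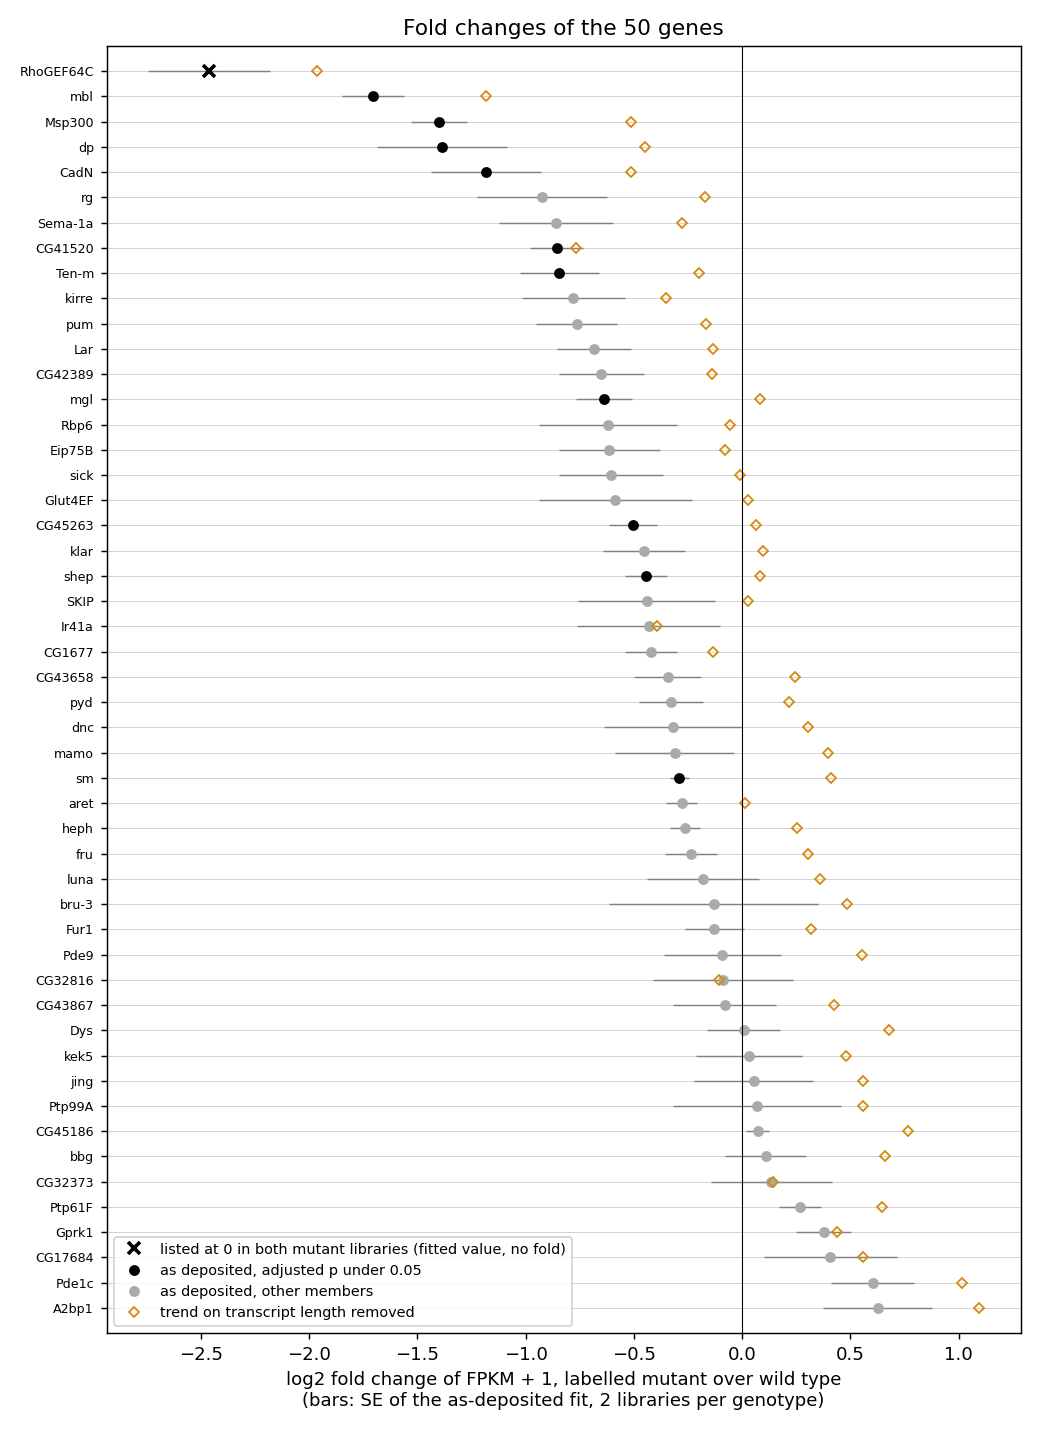
Log2 fold changes of the 50 long genes, mutant over wild type, with bars of 1 standard error. Black symbols mark the 11 called genes, all below 0, grey the others, and the cross is the fitted value of RhoGEF64C, which depends on the pseudocount. Open diamonds are the values after removal of the trend on transcript length, of which 31 lie above 0.

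RNA-binding proteins were the best represented of the gene groups, with 9 long genes. Of these, mbl, shep and sm fell and 0 rose, and the median log2 fold change was -0.29, or -0.44 without mutant replicate 2. The other 107 tested genes of the same list gave 28 lower and 2 higher, with a median of -0.38.

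Muscleblind, encoded by mbl on chr2R:17216549-17379376 (dm6), regulates alternative splicing in muscle and nerve. It had 5.06 and 5.30 FPKM in the libraries labelled mutant, against 20.2 and 18.1 FPKM in the wild-type libraries (log2 fold change -1.71, SE 0.14, limma adjusted p = 0.00968). Its groups were far apart, and mbl had the largest log2 fold change among called long genes above 0 in all libraries, whereas with a pseudocount of 0.1 in place of 1 dp lay lower, at -2.59 against -1.87 for mbl.

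The gene sm (smooth), on chr2R:19517864-19631508, encodes the fly homolog of hnRNP L. Its levels, given above, differed by a log2 fold change of -0.29 (SE 0.04, limma adjusted p = 0.0230). That was the smallest change among the 11 called genes. The gene shep (alan shepard), on chr3L:5155821-5277944, encodes an RNA-binding protein with roles in neurons. It had 21 and 20.8 FPKM in the libraries labelled mutant, against 28.8 and 28.8 FPKM in the wild-type libraries (log2 fold change -0.44, SE 0.10, limma adjusted p = 0.0497), just past the threshold. Both shep and sm were above 0 once the trend on transcript length was removed, at 0.08 and 0.41. The gene shep lost its call under 8 of the 11 alternatives that kept all libraries. The call of sm was also lost without the variance trend in limma (limma adjusted p = 0.140).

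The other highly expressed RNA-binding genes differed by similar amounts without passing the test. Levels of aret, the Bruno translational repressor, were 443 and 470 FPKM in the libraries labelled mutant, against 530 and 579 FPKM in the wild-type libraries (log2 fold change -0.28, limma adjusted p = 0.0649). For heph, the polypyrimidine tract-binding protein needed for sperm individualization, they were 134 and 126 FPKM, against 157 and 156 FPKM (log2 fold change -0.26, limma adjusted p = 0.0670). In both genes each library labelled mutant lay below each wild-type library.

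Lower expressed RNA-binding genes went in both directions. The translational repressor gene pum, also in the list of spermatogonial markers, had 2.95 and 3.30 FPKM in the libraries labelled mutant, against 5.96 and 6.06 FPKM in the wild-type libraries (log2 fold change -0.77, limma adjusted p = 0.0600). Rbp6, of the Musashi family, had 2.73 and 5.31 FPKM, against 6.75 and 6.18 FPKM, and bru-3, a relative of Bruno, had 0.549 and 2.39 FPKM, against 1.56 and 1.47 FPKM. For bru-3 the libraries labelled mutant lay on either side of the wild-type pair. A2bp1, the fly Rbfox splicing regulator, lay the other way, with 10.2 and 6.56 FPKM in the libraries labelled mutant, against 4.98 and 4.95 FPKM in the wild-type libraries (log2 fold change 0.63, SE 0.25, limma adjusted p = 0.161). Its libraries did not overlap between genotypes, yet the spread between its 2 mutant values was wide, and it was not called.

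Adhesion and axon guidance genes numbered 8, and 2 of them, CadN and Ten-m, fell. Their median log2 fold change was -0.73, or -0.77 without mutant replicate 2. The other 98 tested genes of that list gave 11 lower and 1 higher, with a median of -0.29. CadN, on chr2L:17647053-17778340, encodes N-cadherin and was also among the cyst and hub markers. It had 0.938 and 0.876 FPKM in the libraries labelled mutant, against 3.28 and 3.38 FPKM in the wild-type libraries (log2 fold change -1.18, SE 0.25, limma adjusted p = 0.0460), and passed the filter on mean level through the wild-type libraries.

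Ten-m, on chr3L:22293044-22407863, encodes a teneurin, a large transmembrane protein of synaptic partner matching. It had 3.18 and 3.09 FPKM in the libraries labelled mutant, against 6.11 and 6.74 FPKM in the wild-type libraries (log2 fold change -0.84, SE 0.18, limma adjusted p = 0.0477). Both called adhesion genes were low in testes and separate between genotypes. Both lost their call under quantile normalization, the replicate block and removal of the trend on transcript length, which gave log2 fold changes of -0.51 for CadN and -0.20 for Ten-m, and Ten-m also under median scaling and with no filter.

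Among the adhesion genes without a call, CG42389 was the most abundant, with 7.91 and 11.1 FPKM in the libraries labelled mutant, against 15 and 15.6 FPKM in the wild-type libraries (log2 fold change -0.65, limma adjusted p = 0.0946). Its groups did not overlap. The gene kirre, an immunoglobulin protein of myoblast fusion with the second longest locus, had 3.73 and 2.55 FPKM in the libraries labelled mutant, against 5.68 and 6.41 FPKM in the wild-type libraries (log2 fold change -0.78, limma adjusted p = 0.0956). The receptor tyrosine phosphatase gene Lar had 3.82 and 4.02 FPKM, against 6.70 and 7.1 FPKM (log2 fold change -0.68, limma adjusted p = 0.0637). Annotated exons of CG46244 cover 83.6% of the exonic bases of Lar, so the level of Lar is uncertain. The axon guidance gene Sema-1a had 1.17 and 1.41 FPKM, against 2.81 and 3.55 FPKM (log2 fold change -0.86, limma adjusted p = 0.0960). In these 3 the groups did not overlap either. They overlapped for kek5, a leucine-rich repeat protein, with 4.49 and 3.41 FPKM in the libraries labelled mutant, against 3.32 and 4.36 FPKM in the wild-type libraries. They also overlapped for the phosphatase gene Ptp99A, with 0.764 and 1.87 FPKM, against 1.02 and 1.29 FPKM.

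Of 4 long genes in the list of cytoskeleton, motors and polarity, Msp300 and dp fell, with a median of -0.86 over the 4, or -0.92 without mutant replicate 2. The other 159 tested genes of the list gave 31 lower and 12 higher, with a median of -0.21. Msp300, on chr2L:5100877-5206993, encodes a nesprin that links nuclei to the cytoskeleton. It had 33.2 and 36.1 FPKM in the libraries labelled mutant, against 84.6 and 102 FPKM in the wild-type libraries (log2 fold change -1.40, SE 0.13, limma adjusted p = 0.0106). Bases outside the annotated exons of all its transcripts take up 34.2% of its locus, the smallest share of the 50 genes. Its longest annotated transcript has 43121 bases, in a locus of 106117 bases.

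The gene dp (dumpy), on chr2L:4477462-4614300, encodes a giant extracellular matrix protein. It had 0.328 and 0.326 FPKM in the libraries labelled mutant, against 2.36 and 2.59 FPKM in the wild-type libraries (log2 fold change -1.39, SE 0.30, limma adjusted p = 0.0468), and passed the filter through the wild-type libraries. It lost its call under quantile normalization, the replicate block and removal of the length trend. The junction protein gene pyd, the fly ZO-1, had 10.5 and 12.6 FPKM, against 14.5 and 14.9 FPKM (log2 fold change -0.33, limma adjusted p = 0.196). The dystrophin gene Dys overlapped between genotypes, with 7.39 and 8.94 FPKM in the libraries labelled mutant, against 8.48 and 7.72 FPKM in the wild-type libraries. The 2 called genes of this group thus lay far from the 2 without a call.

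Signalling genes numbered 7, with a median of -0.09, or -0.12 without mutant replicate 2, and RhoGEF64C was the only one called. This gene, on chr3L:4692783-4796253, encodes a guanine nucleotide exchange factor. It was listed at 0 in both libraries labelled mutant, against 4.45 and 4.57 FPKM in the wild-type libraries, with deposited intervals of 3.73 to 5.18 and 3.86 to 5.28 FPKM (limma adjusted p = 0.0146). No fold is given, since an exact 0 in these files may be a failed estimate. Prosalpha1 and eIF-4B, genes that every cell uses, were also listed at 0 in all 4 libraries, and 282 tested genes were at 0 in both libraries labelled mutant, against 146 in both wild-type libraries.

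The other signalling genes went both ways without a call. Ptp61F, a cytoplasmic tyrosine phosphatase, had 96.3 and 84.5 FPKM in the libraries labelled mutant, against 73.8 and 75.6 FPKM in the wild-type libraries (log2 fold change 0.27, SE 0.10, limma adjusted p = 0.132). Gprk1, a kinase of G protein-coupled receptors, had 13.5 and 12.9 FPKM, against 9.74 and 10.1 FPKM (log2 fold change 0.38, limma adjusted p = 0.120). Pde1c, a cyclic nucleotide phosphodiesterase, had 9.64 and 12.8 FPKM, against 6.73 and 7.25 FPKM (log2 fold change 0.60, SE 0.19, limma adjusted p = 0.106). These 3 were higher in each library labelled mutant than in each wild-type library.

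The other phosphodiesterase genes did not share that direction. The learning gene dnc, a cAMP phosphodiesterase, had 0.930 and 1.45 FPKM in the libraries labelled mutant, against 1.44 and 2.02 FPKM in the wild-type libraries, and Pde9 had 1.41 and 1.51 FPKM, against 1.67 and 1.58 FPKM. The anchoring protein gene rg had 0.798 and 0.510 FPKM, against 2.16 and 2.09 FPKM (log2 fold change -0.92, limma adjusted p = 0.109). Annotated exons of CG15465 cover 94.4% of the exonic bases of rg, so its level is uncertain. The other 271 tested signalling genes gave 46 lower and 4 higher, with a median of -0.29.

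None of the 4 transcription factor genes was called, and their median was -0.21, or -0.15 without mutant replicate 2, beside 39 lower and 6 higher of the other 211 tested genes of that list, with a median of -0.39. The sex determination gene fru was the highest of them, with 15.3 and 14.4 FPKM in the libraries labelled mutant, against 17 and 18.3 FPKM in the wild-type libraries (log2 fold change -0.24, limma adjusted p = 0.243). The nuclear receptor gene Eip75B had 1.94 and 2.51 FPKM, against 3.69 and 4.15 FPKM (log2 fold change -0.61, limma adjusted p = 0.147). The zinc finger genes luna and jing had log2 fold changes within their spread, with 1.91 and 1.60 FPKM, against 2.21 and 2.03 FPKM, for luna and 1.58 and 2.13 FPKM, against 1.68 and 1.80 FPKM, for jing. No long gene was in the ion channel list, whose 86 tested genes gave 13 lower and 1 higher.

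The remaining 18 long genes were in none of the lists, and 3 of them fell, with a median of -0.38, or -0.35 without mutant replicate 2. CG41520, on chr2R:1649061-1778937, had 21 and 19.3 FPKM in the libraries labelled mutant, against 39.9 and 34.7 FPKM in the wild-type libraries (log2 fold change -0.86, SE 0.12, limma adjusted p = 0.0217). For mgl, which encodes the endocytic receptor megalin on chrX:9358496-9500129, levels were 8.53 and 9.07 FPKM, against 14.2 and 14.3 FPKM (log2 fold change -0.64, SE 0.13, limma adjusted p = 0.0418). CG45263, on chr3R:8364328-8477617, had 28.0 and 25 FPKM, against 36.8 and 39.3 FPKM (log2 fold change -0.51, SE 0.11, limma adjusted p = 0.0489). In all 3 both libraries labelled mutant lay below both wild-type libraries. Calls of mgl and CG45263 were lost under quantile normalization, the replicate block, no filter and removal of the length trend, after which they lay at 0.08 and 0.07. CG45263 also lost its call with a pseudocount of 0.1, under median scaling and without the variance trend in limma, and kept it under 4 of 11 alternatives.

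CG45186, now named Svil after the actin-binding supervillin, was the third most abundant long gene and lay close to no difference. It had 377 and 386 FPKM in the libraries labelled mutant, against 356 and 370 FPKM in the wild-type libraries (log2 fold change 0.07, SE 0.05, limma adjusted p = 0.407). CG17684, with the longest locus of all at 396036 bases, had 1.5 and 1.80 FPKM, against 0.808 and 1.20 FPKM (log2 fold change 0.41, limma adjusted p = 0.398). The others in no list, among them the nuclear positioning gene klar (6.82 and 8.93 FPKM, against 10.4 and 11.8 FPKM) and the furin protease gene Fur1, were not called. CG1677 had 15.4 and 14.2 FPKM in the libraries labelled mutant, against 19.4 and 21 FPKM in the wild-type libraries (log2 fold change -0.42, limma adjusted p = 0.0859).

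Further genes in no list also missed the test, some with values separate between genotypes and others with overlapping values. The neuronal navigator gene sick had 3.39 and 3.42 FPKM in the libraries labelled mutant, against 4.72 and 6.84 FPKM in the wild-type libraries, and SKIP, a partner of Shal potassium channels, had 0.884 and 0.615 FPKM, against 1.29 and 1.45 FPKM. Glut4EF had 1.29 and 0.516 FPKM, against 1.79 and 1.81 FPKM, and mamo, a zinc finger gene, had 1.66 and 1.51 FPKM, against 1.87 and 2.58 FPKM. CG43658 had 6.96 and 8.0 FPKM, against 9.37 and 10.1 FPKM, and Fur1 had 9.51 and 9.95 FPKM, against 11.2 and 10.3 FPKM. These 6 were lower in each library labelled mutant than in each wild-type library. The groups overlapped for the PDZ protein gene bbg, with 9.42 and 8.87 FPKM in the libraries labelled mutant, against 9.65 and 7.31 FPKM in the wild-type libraries. They overlapped as well for CG43867, with 2.14 and 2.24 FPKM, against 2.24 and 2.51 FPKM, and for CG32816, with 1.68 and 2.98 FPKM, against 2.86 and 2.12 FPKM. CG32373, whose longest intron takes up 97.7% of its locus, had 2.10 and 1.69 FPKM, against 1.43 and 1.85 FPKM, and its groups overlapped too.

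Without mutant replicate 2, the log2 fold changes of 12 genes, none of them called, moved by more than 1.5 times or changed sign. Further below 0 lay bru-3 at -0.70, Rbp6 at -1.0, Ir41a at -0.82, dnc at -0.49 and CG32816 at -0.38. Glut4EF at -0.29 and luna at -0.10 came closer to 0. Dys at -0.12, jing at -0.09 and Ptp99A at -0.28 changed sign, and kek5 and CG32373 lay further above 0, at 0.19 and 0.24.

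By chromosome arm, 3 of 9 long genes fell on 2L, 3 of 8 on 2R, 3 of 12 on 3L, 1 of 10 on 3R and 1 of 11 on X. Over all genes tested 8.67% were called lower, and the share of all genes on each arm was not computed. So few calls per arm cannot set the arms apart. Those on 2R include CG41520, which starts at chr2R:1649061, on the arm where no window was cut.

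The 2 genes just inside the size limit were RhoGEF64C, with a locus of 103471 bases, and the ionotropic receptor gene Ir41a, with 104437 bases. Ir41a had 2.11 and 4.30 FPKM in the libraries labelled mutant, against 4.53 and 4.43 FPKM in the wild-type libraries. Just outside, the RNA-binding gene cpo spanned 99061 bases and had 3.46 and 4.6 FPKM, against 9.17 and 9.57 FPKM, a log2 fold change of -1.05. CG43759 spanned 98295 bases and had 0.959 and 0.947 FPKM, against 1.34 and 1.26 FPKM, a log2 fold change of -0.24. The 5 longest loci, those of CG17684, kirre, bru-3, Rbp6 and pum, held none of the 11 called genes.

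Genes of this size in the left-out regions gave calls in both directions, 3 lower and 1 higher of 11 tested. The Y-linked dynein gene kl-5, needed for sperm motility, had 4.93 and 5.07 FPKM in the libraries labelled mutant, against 16.7 and 20.2 FPKM in the wild-type libraries (log2 fold change -1.69). CG15831 was the 1 that rose, with 6.49 and 9.31 FPKM, against 0.380 and 0.360 FPKM (log2 fold change 2.68).

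The structure of the 50 genes was read from the Ensembl gene models for dm6, in which all are protein-coding. Their loci had a median of 127752.5 bases, of which introns, here bases outside the exons of all annotated transcripts, took up a median of 91.6%. The longest intron alone was a median of 66490 bases, or 47.4% of the locus, with a top share of 97.7%. Long genes also had long transcripts and several starts, with a median longest transcript of 8422.5 bases and 7 annotated transcripts, against 1704 bases and 2 transcripts over all genes tested. The files gave them a median of 3 start identifiers, against 1 over all genes.

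The log2 fold change went with transcript length more than with locus length. Across the 50 genes, Spearman's rank correlation with the longest transcript was -0.40, against -0.09 with the locus and 0.21 with the longest intron, and it was 0.01 with the mean level. Across the 10495 genes tested outside the windows, the rank correlation was -0.31 with the transcript and -0.27 with the locus. These are descriptions across genes that share the same 4 libraries, and genes are not independent replicates.

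Calls by class of locus length shifted as well. Of 2195 genes with loci under 1 kb, 132 fell and 456 rose, with a median log2 fold change of 0.23. Of 1840 genes with loci of 5 to 20 kb, 296 fell and 67 rose, with a median of -0.24. Of 141 genes of 50 to 100 kb, 23 fell and 2 rose, with a median of -0.39, beside 11 and 0 and -0.34 in the genes of 100 kb or more. The shift toward lower values was thus already present in loci of 5 to 20 kb. By class of longest transcript, medians ran from 0.24 under 1 kb to -0.65 at 10 kb or more.

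Among transcripts of 5 kb or more, which 42 of the 50 genes have, genes of 100 kb or more had higher medians than genes of the same transcript class with short loci. For transcripts of 10 kb or more, 6 of 16 fell in loci of 100 kb or more, with a median of -0.60, against 17 of 39 in loci under 20 kb, with a median of -0.78. At 7.5 to 10 kb the counts were 3 of 15, with a median of -0.45, against 34 of 90, with a median of -0.58. At 5 to 7.5 kb they were 1 of 11, with a median of 0.03, against 114 of 426, with a median of -0.44. No test of these differences was made, and without mutant replicate 2 the median of the 11 genes was -0.10. Below 5 kb it was the other way, with medians of -0.28 over 5 long genes, against -0.19, at 2.5 to 5 kb and of -0.09 over 3, against 0.10, at 1 to 2.5 kb.

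**Figure D3:**
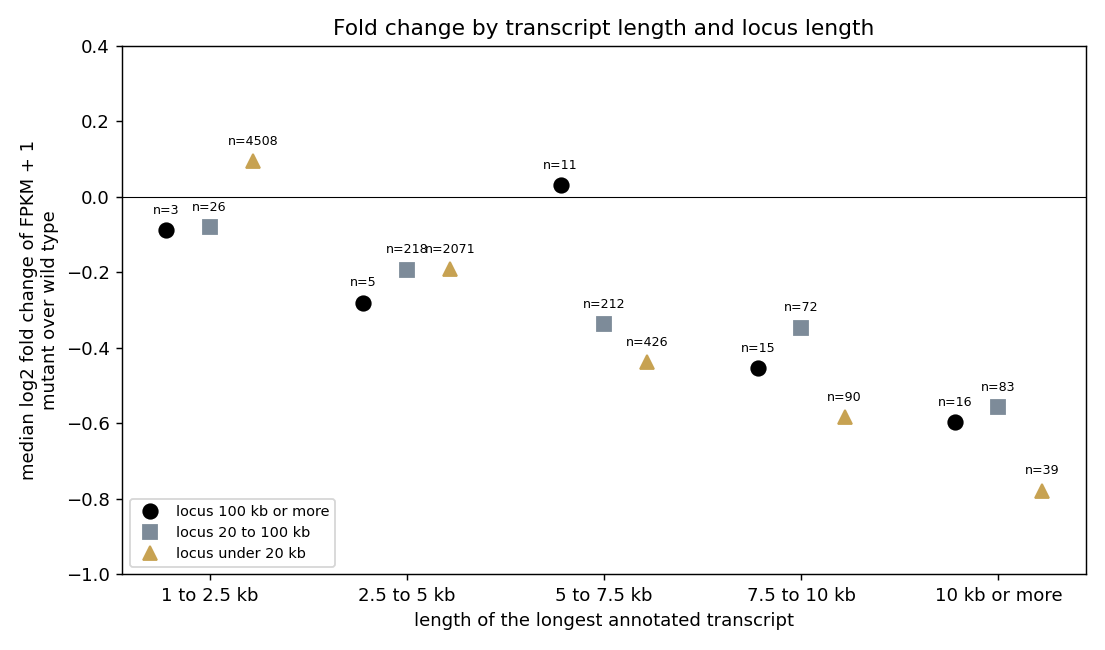
Median log2 fold change, mutant over wild type, by class of longest transcript along the horizontal axis, with circles for loci of 100 kb or more, squares for loci of 20 to 100 kb and triangles for loci under 20 kb, and the number of genes above each symbol. For transcripts of 5 kb or more the circles lie above the triangles, and below 5 kb they lie under them.

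When the trend of values on transcript length was removed from each library before the test, 4 long genes fell and 3 rose, where all genes gave 5.25% lower and 8.49% higher. The median became 0.09, against 0.04 over all genes. The calls that held in the lower direction were RhoGEF64C, mbl (log2 fold change -1.18, limma adjusted p = 0.015), Msp300 (-0.51, limma adjusted p = 0.022) and CG41520 (-0.77, limma adjusted p = 0.024). The genes called higher were CG45186 (0.77, limma adjusted p = 0.010), Ptp61F (0.65, limma adjusted p = 0.023) and Pde1c (1.02, limma adjusted p = 0.032). These 3 were above 0 without the removal as well. Over the 50 genes, 19 changed sign with this choice, and 31 then lay above 0 and 19 below.

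Long introns hold other genes, which are read from the same stretch of chromosome. In all, 204 named genes lay within the loci of 43 of the 50 genes, and 117 of them were tested, with a median longest transcript of 1032.5 bases. Of these, 19 rose and 14 fell, 16.2% and 12%, beside 11.4% and 8.67% of all genes tested and 20.9% and 5.59% of genes with transcripts under 1 kb. Their median log2 fold change was -0.00, or 0.02 without mutant replicate 2. On the strand of the host 5 of 35 rose and 4 fell, and on the opposite strand 14 of 82 rose and 10 fell. Within the loci of the 11 called hosts, 3 of 15 nested genes rose and 1 fell.

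Single loci showed both kinds of pair. CG12699, inside mbl, had 5798 and 6150 FPKM in the libraries labelled mutant, against 4111 and 4122 FPKM in the wild-type libraries (log2 fold change 0.54, limma adjusted p = 0.0096), while mbl fell. CR43881, inside RhoGEF64C, had 30.2 and 26.5 FPKM, against 5.58 and 9.17 FPKM (log2 fold change 1.84, limma adjusted p = 0.020). CG43231, inside CadN, was lower together with its host, with 5.52 and 8.70 FPKM, against 40.4 and 40.3 FPKM (log2 fold change -2.38, limma adjusted p = 0.0112). These nested genes were chosen after their values were seen. Over all 81 tested nested genes with a host below 0, 46 were below 0 and 35 above.

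**Figure D4:**
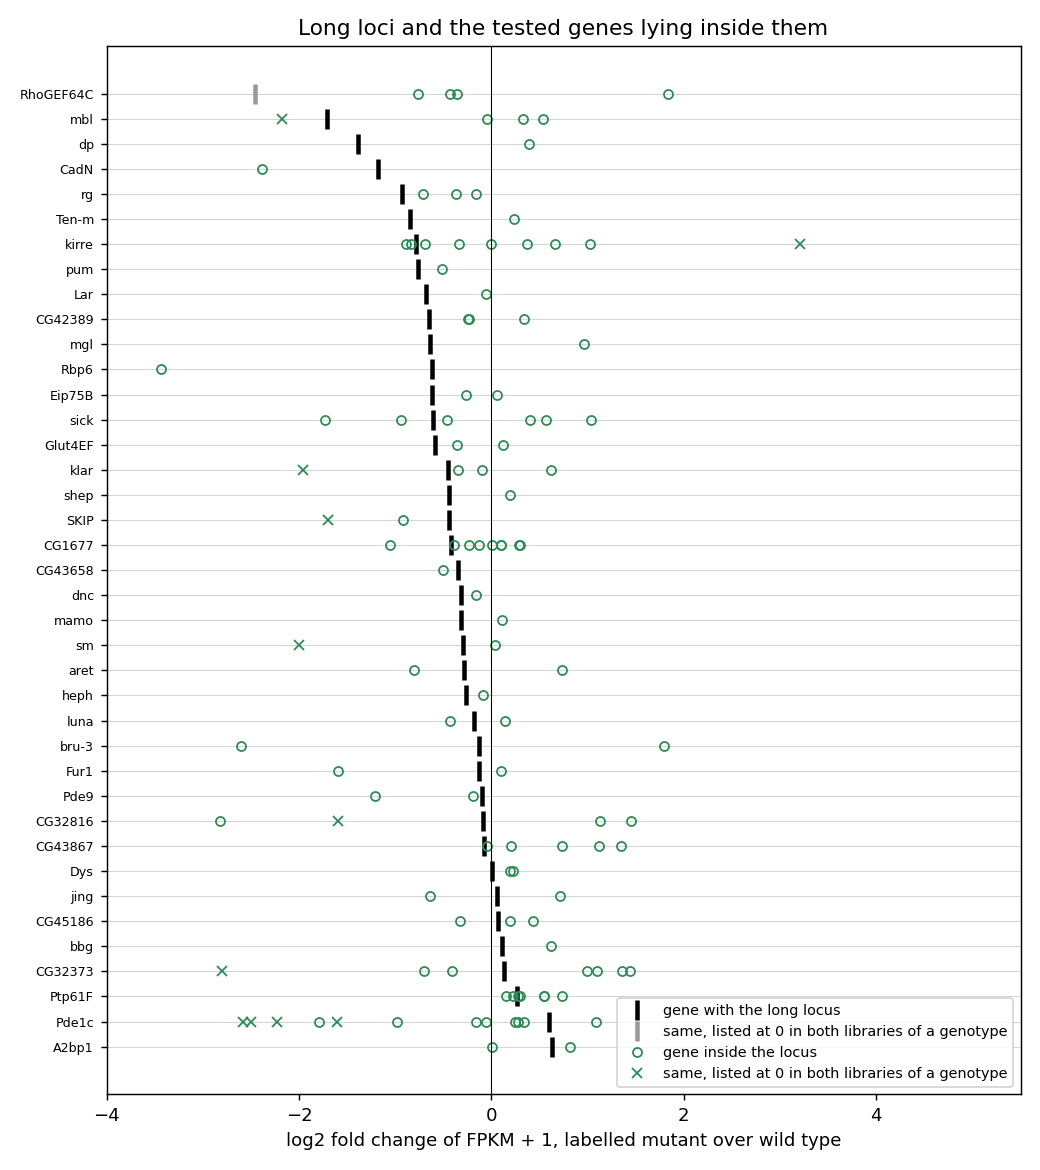
Log2 fold changes, mutant over wild type, of 117 tested genes that lie inside long loci, a row per host, with a vertical bar for the host and circles or crosses for the genes inside it. The bars run in order of the host, while the genes inside lie on both sides of 0 in hosts below 0 and in hosts above 0.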

How the data were processed

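Each of the 4 deposited files holds, per the file headers, 1 FPKM value per gene and the FPKM bounds of its 95% interval. The submitters' processing notes name TopHat, Cufflinks and build dm6. Versions, settings, the annotation and the strand rule were not given in the sources used here. FPKM had been scaled by the authors to library total and transcript length, so a shift in the lengths of the RNA sampled moves all values. Of 16745 rows, the 380 with 145 repeated names were summed. Samples were grouped by the labelled genotype. The series calls the replicates biological.

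Values were tested as log2(FPKM + 1) in R 4.3.3 with limma 3.58.1, by lmFit and by eBayes with its trend option. Genes whose mean reached 1 FPKM entered, and p-values were adjusted over all of them by Benjamini-Hochberg. With 2 libraries a side, the smallest two-sided p of an exact permutation test is 0.33. The procedure was also run on simulated data, with a spread equal in both genotypes. Those data held no difference in depth and no trend on transcript length between genotypes, so the run does not cover these features. Fragments per library were estimated from the deposited intervals, and 54.4% to 63.1% of low estimates lay within 0.05 of a whole number, so no counts were recovered. The windows left out were 2L from 22 Mb, 3L from 23 Mb, 3R below 4.6 Mb and X from 22 Mb. Positions are dm6, counted from 1. Gene structures came from the Ensembl annotation of that assembly, where 16376 names matched, and a gene was given the length of its longest transcript. Of the 50 genes, 5 share at least 10% of their exonic bases with another gene: rg, Lar, Glut4EF, Ptp99A and CG1677. Their levels are uncertain.

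The genes and gene lists were chosen with earlier results of these data known. Genes named with values were the 11 called, the 3 most abundant of each list, the 8 most abundant, the 5 longest, those next to the size limit, those at 0 in a genotype, and Su(var)3-9. Further ones were added after their values were seen. The replicate numbers are shared between genotypes, but replicate differences correlated across genes at -0.0499 between genotypes, so the numbers were not taken to pair the libraries. The alternatives concerned the size limit, the windows, the length trend, the replicate block, the scaling, the variance model, the filter, the pseudocount and each library in turn.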

Additional observations from a re-analysis of the deposited data

How the results depend on the processing

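Against 11 lower and 0 higher long genes, no filter on low values gave 7 lower, a filter at 5 FPKM gave 7 of 25 and quantile normalization 7. Median scaling gave 8 and the replicate block 5, though the pairing is not given by the design. Over all genes, 935 of 10784 were lower in the main test, 859 of 13404 with no filter and 875 of 7962 at 5 FPKM. Quantile normalization gave 982 lower over all genes, median scaling 851 and the replicate block 596, each of 10784. Keeping only genes above 0 in all 4 libraries gave 14 of 49 long genes, beside 1079 of 9762 over all genes. Removal of the length trend gave 4 lower and 3 higher, beside 565 lower and 913 higher of 10758. A limit of 50 kb gave 34 lower and 2 higher of 191 genes, and 150 kb gave 1 of 12. With 2R below 5.7 Mb left out as well, 10 of 46 long genes were lower and 0 higher, with a median of -0.34. Leaving out 1 library gave 0 to 1 lower, 0 without either mutant library, and 0 higher. With mutant replicate 1 or 2 left out, no gene of the whole table was called. The causes were not tested, apart from the fewer genes or libraries in some of these. The median of -0.34 became -0.45 with a pseudocount of 0.1, -0.25 with 5, 0.091 without the length trend and -0.52 for loci of 150 kb, and ranged from -0.43 to -0.28 with 1 library left out. CG41520, Msp300 and mbl kept their call under every alternative run that kept all 4 libraries. RhoGEF64C kept its call under the 9 of these that it entered. It did not enter the filter at 5 FPKM or the setting of genes above 0 in all 4 libraries.

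Log2 fold changes of single genes that changed sign were as follows. Under quantile normalization CG32816 was at 0.10, CG43867 at 0.11, CG45186 at -0.25, Pde9 at 0.18, SKIP at 0.0037, bru-3 at 0.23, dnc at 0.024 and luna at 0.045. Without the length trend the called genes CG45263, mgl, shep and sm were at 0.065, 0.083, 0.081 and 0.41. In that setting CG43658 was at 0.24, CG43867 at 0.43, Fur1 at 0.32, Glut4EF at 0.026, Pde9 at 0.55, SKIP at 0.025, aret at 0.011, bru-3 at 0.48, dnc at 0.30, fru at 0.31, heph at 0.25, klar at 0.10, luna at 0.36, mamo at 0.39 and pyd at 0.22. With 1 library left out, CG32816 ranged from -0.38 to 0.20, bru-3 from -0.70 to 0.43, kek5 from -0.13 to 0.19, Dys from -0.12 to 0.13, Ptp99A from -0.28 to 0.42, jing from -0.086 to 0.19 and bbg from -0.071 to 0.29.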
